A study of Mus musculus with 8 samples.

Results

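The constitutive proteasome was examined here through 31 of its subunit genes in the corpus callosum of PLP-150Q mice. As background, these mice model Huntington's disease and carry a mutant huntingtin fragment under the proteolipid protein (PLP) promoter, so the fragment is made in oligodendrocytes. The members were the rows of the deposited count table whose gene symbol equalled one of 31 listed names, and all 31 were found among the 41128 rows. They comprise 14 subunits of the 20S core (Psma1 to Psma7 and Psmb1 to Psmb7) and 17 subunits of the 19S regulatory particle (Psmc1 to Psmc6 and Psmd1, Psmd2, Psmd3, Psmd4, Psmd6, Psmd7, Psmd8, Psmd11, Psmd12, Psmd13 and Psmd14). The 4 LAQ libraries (5 to 8) came from mice given LAQ, read here as the immunomodulator laquinimod, at 5 mg/kg for 2 months from an age of 3 months. The 4 control libraries (1 to 4) came from mice given purified water over the same time, and tissue of both groups is labelled as taken at 5 months of age. Both groups carry the transgene, and no group without it was analysed here. The series' design counts 4 mice in each group, matching the libraries in number, and no sex, litter or batch is given.

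The proteasome is the cell's main machine for degrading proteins tagged with ubiquitin. Its 20S core is a barrel of stacked rings, in which outer rings of alpha subunits gate the entrance and inner rings of beta subunits hold the active sites, contributed by Psmb5, Psmb6 and Psmb7. The 19S particle caps the barrel: a base with a ring of ATPases unfolds and threads the substrate, and a lid removes its ubiquitin. Every cell needs the complex, misfolded proteins such as polyglutamine fragments are among its substrates, and interferon can replace its catalytic subunits with inducible ones.

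The LAQ libraries held 9634156 to 12021429 counted reads and the control libraries 8790749 to 11972197, of which the members took 0.392% to 0.452% in LAQ and 0.389% to 0.414% in control. Every member passed the filter on low counts, so none was lost to it. Myelin and mature oligodendrocyte markers, which define the labelled white matter, were all detected (12 of 12), with a summed level of 12959.9 to 16948 CPM in LAQ and 12211 to 14005 CPM in control (CPM, library-scaled counts after TMM). Neuronal RNA was present as well, with 5939 to 7662 CPM in LAQ and 7240.4 to 7822 CPM in control summed over 8 general neuronal markers. The library labelled LAQ 7 stood apart. Its median root-mean-square distance to the other LAQ libraries was 0.491 on the log2 scale over all tested genes, against 0.405 for each of the others, and 0.361 to 0.383 among control libraries. The results below are therefore given with and without LAQ 7.

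No proteasome subunit passed the test between LAQ and control, but 28 of the 31 had a log2 fold change above 0, and the library LAQ 7 went against its group. By edgeR's quasi-likelihood test with Benjamini-Hochberg adjustment over all 15771 tested genes, 0 members had an adjusted p under 0.05, where 0.00% of all genes did. The adjusted p of the members ran from 0.336 (Psmd14) to 0.989 (Psmd12). At an unadjusted p under 0.05, 7 members stood higher in LAQ, against 4.77% of all genes, and 0 stood lower, against 6.33% of all genes. The 7 were Psma2, Psma4, Psmb5, Psmb6, Psmc2, Psmc6 and Psmd14. A log2 fold change above 0 was found for 49.7% of all genes, and the median was 0.10 over the members and -0.00120 over all tested genes. The fitted ratio of LAQ to control ran from 0.975 (Psmd3) to 1.29 (Psmb5). The ranges of the LAQ and control libraries overlapped in all 31 members, where 2.78% of all genes were higher and 3.61% lower without overlap. The members tended to move together by library, so counts of members are not separate observations and rest on 4 libraries in each group.

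Without LAQ 7, 2 members passed edgeR's test, both higher in LAQ, where 2.13% of all genes passed. They were Psmb5, with a log2 fold change of 0.51 ± 0.08 (SE) and an adjusted p of 0.0185, and Psmd14, with 0.30 ± 0.07 and an adjusted p of 0.0410. In that fit 30 of 31 members had a log2 fold change above 0, against 49.1% of all genes, and the median over the members was 0.15. At an unadjusted p under 0.05, 14 members stood higher (8.92% of all genes) and 0 lower (10.8% of all genes). The 3 remaining LAQ libraries lay above all 4 control libraries in 15 members, against 7.88% of all genes. They lay below all controls in 0 members, against 8.70% of all genes. LAQ 7 was singled out from these same data, and the labels give no reason to leave it out. It was the lowest LAQ library for 27 of the 31 members, against 29.7% of all genes. Leaving it out was thus bound to raise the members more often than other genes, and these counts are no separate support. Leaving out any other single library left 0 members past the threshold, with 1 to 8 members at an unadjusted p under 0.05. All of these stood higher in LAQ. They were 5 members without control 1 (3.48% of all genes higher at that threshold), 8 without control 2 (3.39%), 3 without control 3 (4.98%) and 2 without control 4 (4.21%). Without LAQ 5 they were 3 members (3.43% of all genes), without LAQ 6 they were 4 (4.00%), and without LAQ 8 only Psmd14 was left (1 of 31, or 3.23%, against 4.58% of all genes). Over the same 7 fits the median log2 fold change of the members was lowest at 0.07, without LAQ 8.

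**Figure D1:**
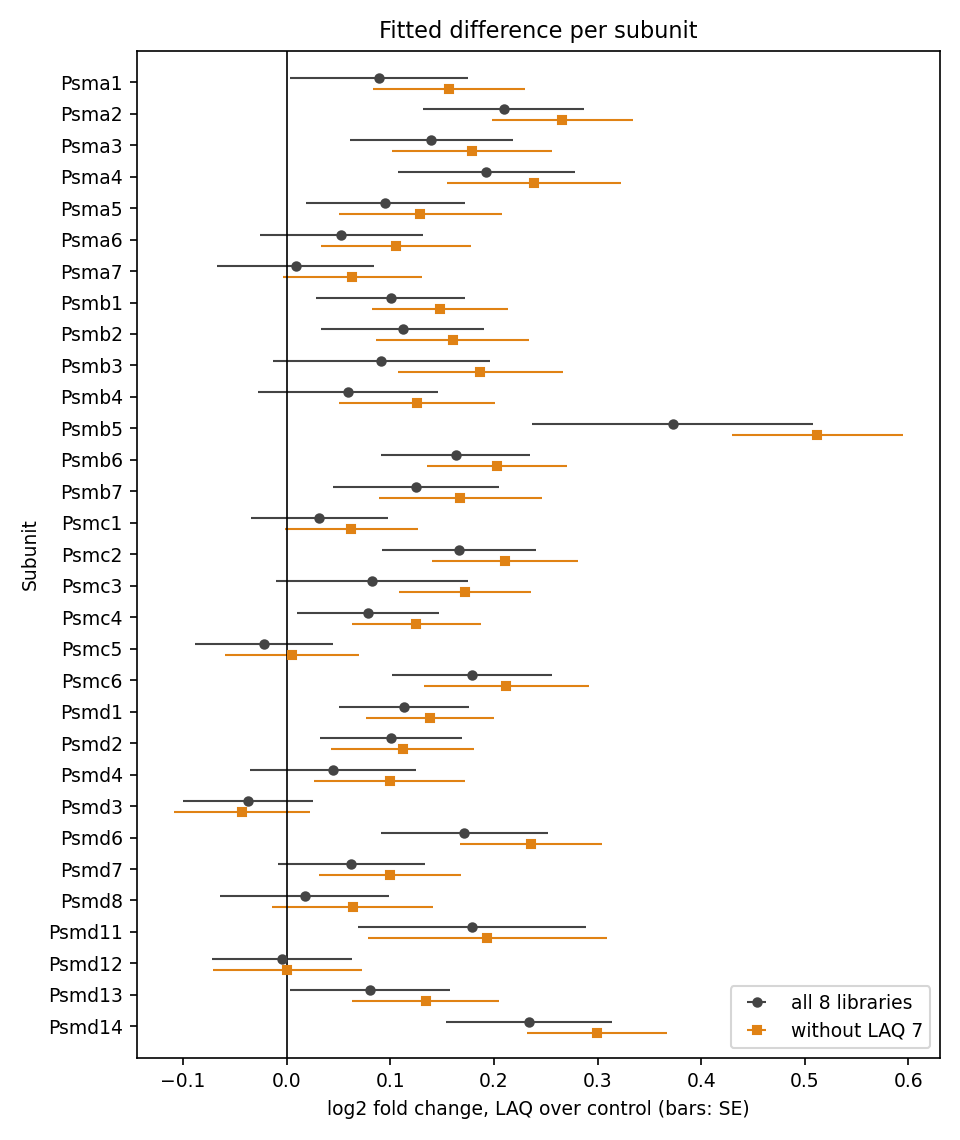
Fitted log2 fold change of each of the 31 subunits, LAQ over control (horizontal axis; bars are SE), with all 8 libraries (circles) and without LAQ 7 (squares). Of the circles, 28 lie to the right of 0, and Psmb5 lies farthest, at 0.37 with all libraries and 0.51 without LAQ 7.

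The members tended to share their lowest and highest library, more so in LAQ than in control. Within LAQ, 27 of the 31 members had their lowest value in LAQ 7, which was the lowest LAQ library for 29.7% of all tested genes, and 23 had their highest value in LAQ 8, which was the highest for 24.3% of all genes. Within control, 18 members were highest in control 2, against 24.8% of all genes. The lowest control library was control 4 for 16 members, against 23.8% of all genes, and control 3 for 10, against 26.7%. The 31 members summed to 4379.6, 4288, 3883 and 4525 CPM in LAQ 5 to 8, against 4073, 4177, 3947 and 3850.5 CPM in control 1 to 4. LAQ 7 thus fell within the control range, and the other 3 LAQ libraries lay above it. The summed level averaged 4269 ± 275 CPM in LAQ and 4012 ± 143 CPM in control (SD, n = 4 each), a ratio of 1.06, or 1.096 without LAQ 7. The coefficient of variation of a typical member (median over 31) was 8.41% among the LAQ libraries, 4.69% among LAQ 5, 6 and 8, and 5.52% among the control libraries, against 12.7%, 10.7% and 9.98% in the same sets of libraries for a typical tested gene. That coefficient falls as counts rise, and the tested genes were not matched to the members in level.

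**Figure D2:**
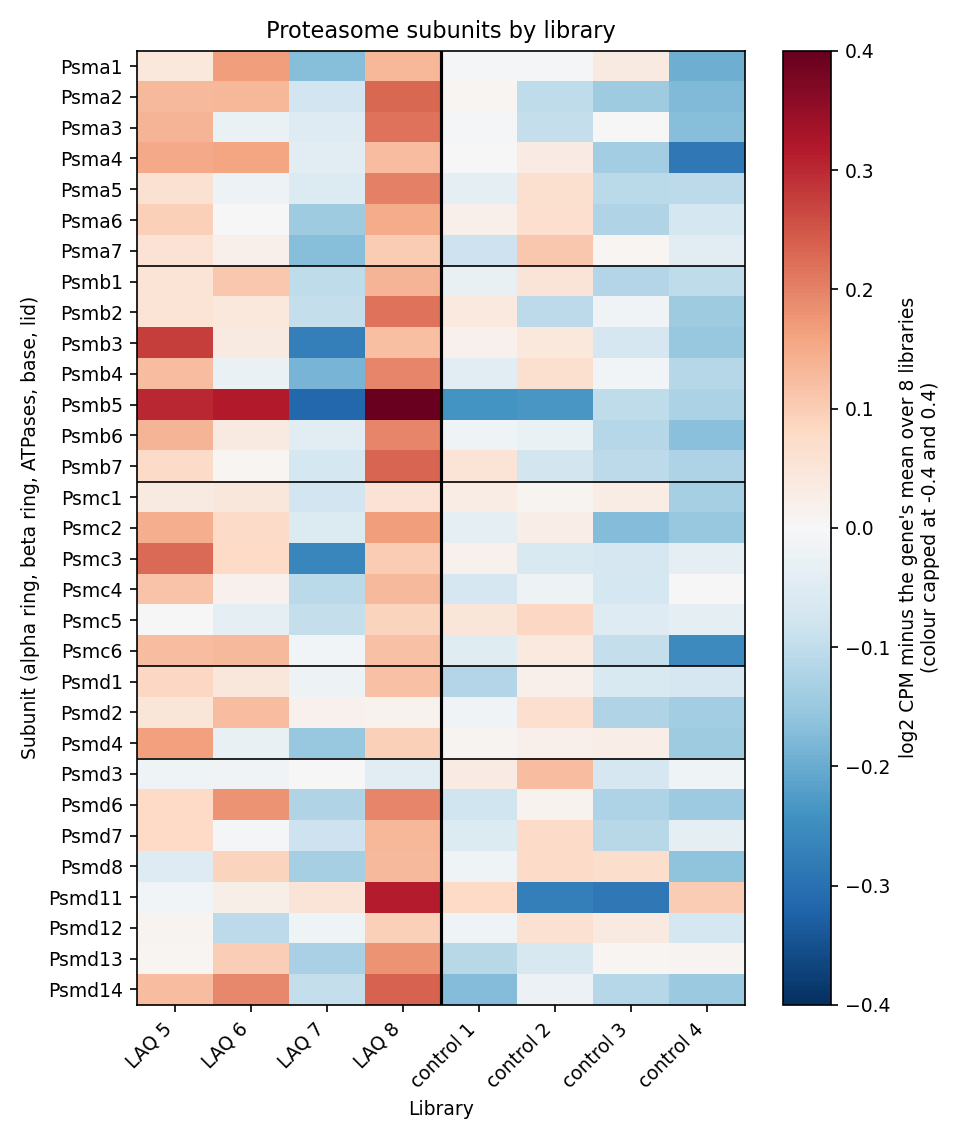
Level of each subunit in each library, as log2 CPM minus that gene's mean over the 8 libraries (colour, capped at -0.4 and 0.4), with LAQ libraries left of control libraries and lines between the alpha ring, beta ring, ATPases, other base subunits and lid. The column of LAQ 7 is mostly blue, with 27 of 31 subunits lowest there among the LAQ libraries, and the column of LAQ 8 is mostly red.

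Neuronal markers were low in LAQ 7. A cortical marker score (mean standardized log2 level of the 12 markers below) was -0.027, 0.21, -1.19 and -0.76 in LAQ 5 to 8. LAQ 8, with the next lowest score, was the highest LAQ library for 23 of the 31 members. The 12 cortical excitatory markers summed to 2569 CPM in LAQ 7 and 3587 to 4095 CPM in the other LAQ libraries, against 3665 to 4182 CPM in control, with 10 of 12 having a log2 fold change below 0. The 8 general neuronal markers summed to 5939 CPM in LAQ 7, 7379 to 7662 CPM in the other LAQ libraries and 7240.4 to 7822 CPM in control. The myelin list ran the other way and was highest in LAQ 7, at 16948 CPM. The other LAQ libraries held 12959.9 to 15283 CPM and the control libraries 12211 to 14005 CPM. All 12 of its markers had a log2 fold change above 0, with a median of 0.21. With the cortical marker score as a covariate, 0 members and 3.24% of all genes passed edgeR's test, and the members' median log2 fold change was 0.15. At an unadjusted p under 0.05, 10 members stood higher in that fit, against 8.96% of all genes. The 10 were Psma1, Psma2, Psma4, Psmb3, Psmb5, Psmc2, Psmc3, Psmc6, Psmd6 and Psmd14. Among them Psmb3 had a log2 fold change of 0.31 (0.09 without the covariate), Psmc3 of 0.27 (0.08) and Psma1 of 0.25 (0.09). Psma4 had 0.32, Psmc6 0.28 and Psmd6 0.30. Psmb1 had 0.20 and Psmd2 0.17, and neither was among the 10. Each of these subunits stood over 1.5 times its value without the covariate. That score was lower in every LAQ library than in any control library, so it shares part of its variation with the treatment. Ependymal markers (8 of 8 with a log2 fold change above 0) summed to 46.1 to 62.3 CPM in LAQ and 28.1 to 40.4 CPM in control. Choroid plexus markers (8 of 8) summed to 1318 to 3729.9 CPM in LAQ and 397 to 2574 CPM in control, and blood markers (4 of 4) to 446 to 619 CPM in LAQ and 245 to 533 CPM in control. Log2 fold changes below 0 were found for 6 of 8 astrocyte, 7 of 8 microglial and 8 of 8 endothelial markers. Their summed levels were 4889.8 to 5413 CPM in LAQ and 4941 to 5526 CPM in control for astrocytes, 543 to 647 CPM in LAQ and 591 to 649 CPM in control for microglia, and 182 to 372 CPM in LAQ and 293 to 372 CPM in control for endothelium. None of the markers found in the table was at 0 in all libraries. The part of these cell types in the subunits' differences was not tested, and in bulk tissue fewer cells of a type and less RNA per cell cannot be told apart.

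The 20S core had the higher ratio. Its 14 subunits summed to 1633, 1578, 1398 and 1712 CPM in LAQ 5 to 8, against 1497, 1511, 1444 and 1376 CPM in control 1 to 4. Only LAQ 7 fell within the control range. The mean was 1580.0 ± 133 CPM in LAQ and 1457 ± 61.1 CPM in control (SD, n = 4 each), a ratio of 1.08, or 1.13 without LAQ 7. The 17 subunits of the 19S particle summed to 2747, 2710.3, 2485 and 2813 CPM in LAQ 5 to 8, against 2576, 2666, 2503 and 2474 CPM in control 1 to 4. The mean was 2689 ± 142 CPM in LAQ and 2555 ± 85.6 CPM in control (SD, n = 4 each), a ratio of 1.05, or 1.08 without LAQ 7. The difference between the particles was not tested.

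**Figure D3:**
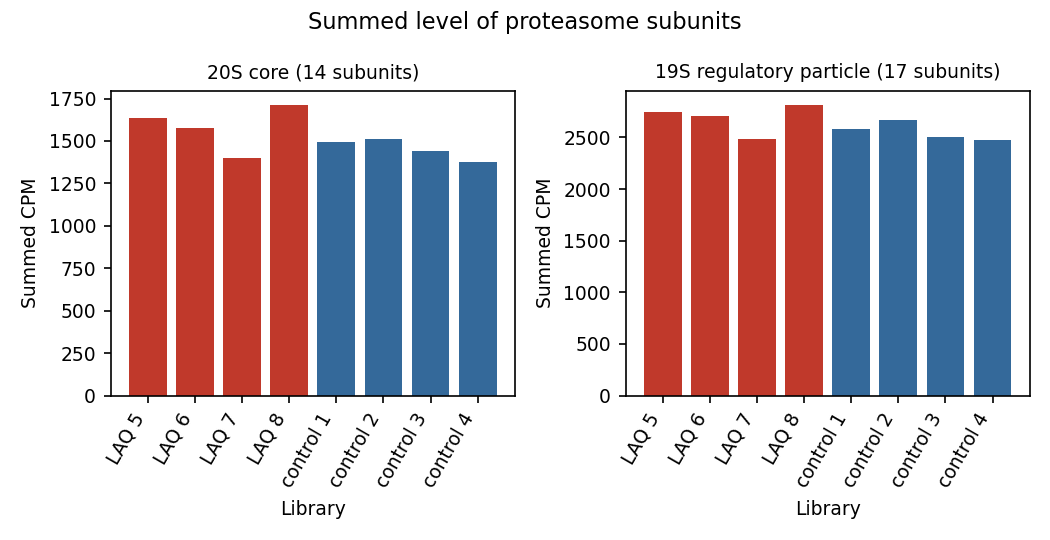
Summed CPM of the 14 core subunits (left) and the 17 subunits of the regulatory particle (right) in each library, LAQ libraries first. In the core, LAQ 5, 6 and 8 reach 1578 to 1712 CPM, above every control library, and LAQ 7 stands at 1398 CPM.

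Among the alpha subunits, all 7 had a log2 fold change above 0, from 0.01 (Psma7) to 0.21 (Psma2), and 0 passed the test. Direction was not stable for Psma7, which stood below 0 without control 1, control 4, LAQ 5 or LAQ 8, lowest at -0.02 without LAQ 8. Psma2 had 143, 143, 124 and 153 CPM in LAQ 5 to 8, against 131, 122, 118 and 116 CPM in control 1 to 4. LAQ 5, 6 and 8 exceeded all controls, and LAQ 7 lay between control 1 and control 2. Psma2 averaged 141 ± 12.2 CPM in LAQ and 122 ± 6.83 CPM in control (SD, n = 4 each), with a log2 fold change of 0.21 ± 0.08 (SE; adjusted p by edgeR, 0.361). Psma4 had 84.8, 85.1, 74.0 and 83.2 CPM in LAQ, against 76.5, 78.1, 69.2 and 62.6 CPM in control, a log2 fold change of 0.19 ± 0.09 (SE; adjusted p by edgeR, 0.439). Psma4 was above the controls in every LAQ library but LAQ 7, and its lowest value was in control 4. An exon of Psma4 overlaps a gene on the other strand, AY074887, and since the strand setting of the counting was not given in the sources used here, its count is uncertain. Psma3 had 113, 101, 99.2 and 119.6 CPM in LAQ and 102, 96.2, 103 and 91.4 CPM in control. Those groups overlapped, and the log2 fold change of Psma3 was 0.14 ± 0.08 (SE), or 0.09 without LAQ 8. Psma1, Psma5 and Psma6 stood between 0.05 and 0.10, with 0.16 for Psma1 without LAQ 7. Psma5 shares exon sequence with 1700010K24Rik on the other strand, so its count is uncertain as well.

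The beta ring carried the largest difference of all members. Psmb5, which holds the chymotrypsin-like active site, had 44.7, 45.2, 29.2 and 47.6 CPM in LAQ 5 to 8, against 30.7, 30.9, 33.7 and 33.2 CPM in control 1 to 4. LAQ 5, 6 and 8 stood well above every control library, while LAQ 7 stood below all of them. Its mean was 41.7 ± 8.43 CPM in LAQ and 32.1 ± 1.58 CPM in control (SD, n = 4 each), and the fitted log2 ratio was 0.37 ± 0.14 (SE; adjusted p by edgeR, 0.360). Its adjusted p was 0.0185 without LAQ 7. DESeq2 gave Psmb5 an adjusted p of 0.277 and called 0 members, against 0.845% of all genes, with 7 members higher at an unadjusted p under 0.05, against 4.69% of all genes. With the cortical marker score as a covariate the log2 fold change of Psmb5 was 0.64 (adjusted p by edgeR, 0.0587). On the log2 scale Psmb5 in LAQ 7 deviated by -0.65 from the mean of the other LAQ libraries, the widest deviation among the members, whose median was -0.19 (0.01 over all tested genes). Without LAQ 7 the coefficient of variation of Psmb5 in LAQ was 3.45%, against 20.2% with it.

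Psmb6, which holds the caspase-like site, had 208, 194, 184 and 217 CPM in LAQ 5 to 8, against 187, 186, 175 and 169 CPM in control 1 to 4. Every LAQ library but LAQ 7 exceeded the controls. Its log2 fold change was 0.16 ± 0.07 (SE; adjusted p by edgeR, 0.436), or 0.20 ± 0.07 and an adjusted p of 0.122 without LAQ 7. Psmb7, which holds the trypsin-like site, had 82.8, 78.8, 74.7 and 92.1 CPM in LAQ, against 81.4, 74.5, 73.0 and 72.1 CPM in control. Those groups overlapped, with 2 LAQ libraries below control 1, and the log2 fold change was 0.12 ± 0.08 (SE; adjusted p by edgeR, 0.588), or 0.07 without LAQ 8. The structural subunits Psmb1, Psmb2, Psmb3 and Psmb4 stood at 0.06 (Psmb4) to 0.11 (Psmb2). With a library left out, Psmb3 ran from 0.01 (without LAQ 5) to 0.19 (without LAQ 7). Psmb4 ran from 0.0049 (without LAQ 8) to 0.13 (without LAQ 7). The pseudogenes Psmb5-ps, Psmb6-ps and Psmb7-ps2 had 0 counts in every library. Pseudogenes not named after a member were not searched, and these counts do not show how shared reads were assigned. Psmb7 shares exon sequence with Nek6 on the other strand, which makes its count uncertain. The microRNA gene Mir686 overlaps an exon of Psmb5 on the same strand, so the count of Psmb5 is uncertain too.

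Promoter sequence was examined for the core of the antioxidant response element, TGACNNNGC, because Nfe2l1, the factor known to raise proteasome genes when proteasomes are inhibited, binds that element. RefSeq promoter windows on GRCm38.p6 matched 25 of the 31 members. In the 250 bases upstream of the annotated start, searched on both strands, 4 of these 25 held the motif (Psmb5, Psmb6, Psmc6 and Psmd12), or 4 of 27 windows (14.8%), against 10.2% of 32851 windows of all genes. The first 3 in alphabetical order are printed 5′ to 3′ on the gene's strand, with the motif in capitals and ending before the first base that RefSeq or GENCODE annotates as transcribed. They are chr14:54618023-54618245 (minus strand) for Psmb5, chr11:70525107-70525356 (plus strand) for Psmb6 and chr14:45329574-45329787 (plus strand) for Psmc6, where the motif lies on the opposite strand and so reads reversed and complemented.
Psmb5: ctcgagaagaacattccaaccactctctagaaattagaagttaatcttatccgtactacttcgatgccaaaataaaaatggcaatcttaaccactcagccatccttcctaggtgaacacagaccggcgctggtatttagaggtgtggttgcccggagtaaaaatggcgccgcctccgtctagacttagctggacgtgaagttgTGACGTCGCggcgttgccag
Psmb6: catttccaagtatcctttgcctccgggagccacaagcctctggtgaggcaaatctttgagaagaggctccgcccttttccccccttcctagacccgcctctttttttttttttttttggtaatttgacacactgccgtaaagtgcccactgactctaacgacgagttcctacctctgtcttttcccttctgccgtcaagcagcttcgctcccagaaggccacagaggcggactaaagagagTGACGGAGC
Psmc6: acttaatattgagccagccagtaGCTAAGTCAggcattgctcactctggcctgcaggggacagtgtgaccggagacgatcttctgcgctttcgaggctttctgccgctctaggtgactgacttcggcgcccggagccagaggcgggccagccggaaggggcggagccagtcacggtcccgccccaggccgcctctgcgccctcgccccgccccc
The motif begins 47 bases before the RefSeq start in Psmb5, 9 in Psmb6 and 227 in Psmc6. Psmd12 had a log2 fold change of -0.00441, and of the 7 members at an unadjusted p under 0.05 the other 4 (Psma2, Psma4, Psmc2 and Psmd14) had no match in the window. A match of these letters describes the sequence and says nothing of binding.

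In the base, 5 of the 6 ATPases had a log2 fold change above 0, and 0 passed. Psmc6 had 76.1, 76.5, 69.3 and 75.7 CPM in LAQ 5 to 8, against 67.5, 71.7, 65.4 and 58.5 CPM in control 1 to 4. LAQ 7 was lowest of its group and lay below control 2 alone. The log2 fold change of Psmc6 was 0.18 ± 0.08 (SE; adjusted p by edgeR, 0.431). Psmc2 had 137, 131, 119.7 and 139.6 CPM in LAQ, against 121, 127, 110.2 and 112 CPM in control, a log2 fold change of 0.17 ± 0.07 (SE; adjusted p by edgeR, 0.442). Again LAQ 7 was the one LAQ library within the control range. Psmc5, the most abundant subunit of the particle per length, had 288, 279.8, 269.6 and 306 CPM in LAQ and 298, 305, 278 and 281 CPM in control. Its groups overlapped throughout, and its log2 fold change of -0.02 ± 0.07 (SE) changed sign without LAQ 7 (0.01) and without control 2 (0.01). Psmc1, Psmc3 and Psmc4 stood at 0.03, 0.08 and 0.08, with -0.00097 for Psmc1 without control 4. Psmc3 ran from 0.02 without LAQ 5 to 0.17 without LAQ 7. The base scaffolds Psmd1 and Psmd2 stood at 0.11 and 0.10, and the ubiquitin receptor Psmd4 at 0.04, or -0.0030 without LAQ 5. Psmc3 (with Slc39a13) and Psmd1 (with Htr2b and Gm21972) share exon sequence with neighbouring genes and are uncertain.

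Of the 8 lid subunits, 6 had a log2 fold change above 0. Psmd14, the deubiquitinase that cuts ubiquitin off the substrate, had the smallest p of all members. It had 115, 120.5, 98.7 and 124 CPM in LAQ 5 to 8, against 93.5, 104, 97.4 and 95.2 CPM in control 1 to 4. LAQ 5, 6 and 8 exceeded every control library, and LAQ 7 exceeded all but control 2. Psmd14 averaged 115 ± 11.2 CPM in LAQ and 97.4 ± 4.53 CPM in control (SD, n = 4 each), with a log2 fold change of 0.23 ± 0.08 (SE; adjusted p by edgeR, 0.336). Its adjusted p was 0.0410 without LAQ 7, and with the cortical score as a covariate its log2 fold change was 0.36 (adjusted p by edgeR, 0.0813). Psmd7, its catalytically inactive partner, stood at 0.06 ± 0.07 (SE). Psmd6 had 109.6, 117, 95.3 and 119 CPM in LAQ, against 98.0, 105, 95.2 and 93.6 CPM in control, a log2 fold change of 0.17 ± 0.08 (SE; adjusted p by edgeR, 0.456). It is a scaffold of the lid. LAQ 7 matched the lower controls and the other LAQ libraries exceeded them all. Psmd11, which clamps the lid to the core, had 65.4, 67.0, 68.3 and 81.8 CPM in LAQ and 69.7, 54.5, 54.0 and 70.8 CPM in control. Here LAQ 8 alone exceeded the controls and LAQ 7 was not low, and the log2 fold change was 0.18 ± 0.11 (SE), or 0.10 without LAQ 8 and 0.03 with the cortical score as a covariate. Psmd3 (-0.04), Psmd12 (-0.00441), Psmd8 (0.02) and Psmd13 (0.08) completed the lid. Psmd3 stood at 0.0029 without control 2, and the signs of Psmd12 and Psmd8 also varied with the libraries left out. Psmd3 and Psmd13 share exon sequence with Gm12356 and Sirt3 on the other strand.

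Levels per length differed widely between subunits. Per kilobase of principal transcript, Psmb6 was highest, at 252 ± 18.2 CPM per kb in LAQ and 225 ± 11.2 in control, followed by Psmc5 at 217 ± 11.8 CPM per kb in LAQ and 220.5 ± 9.86 in control. Psmd11 was lowest, at 24.8 ± 2.66 CPM per kb in LAQ and 21.8 ± 3.24 in control (SD, n = 4 each throughout). The highest and lowest subunit thus differed 10.1-fold in LAQ and 10.3-fold in control. The median over the 14 core subunits was 87.7 CPM per kb in LAQ and 82.9 in control, and over the 17 subunits of the regulatory particle 76.3 in LAQ and 70.9 in control. Within the core, Psma3 was lowest, at 38.0 ± 3.42 CPM per kb in LAQ and 34.5 ± 1.89 in control, and Psmb5 was next, at 46.3 ± 9.38 CPM per kb in LAQ and 35.7 ± 1.76 in control. In control these neighbours lay within their spread. The rank by level per length was the same in both groups for 18 of the 31 subunits, and no rank changed by more than 4. The order depends on the length used. With the union of all annotated exons Psmc5 was highest (205 CPM per kb in LAQ and 208 in control), Psmd11 remained lowest (11.1 in LAQ and 9.75 in control), and Psmb7 took the lowest place in the core (24.0 in LAQ and 21.997 in control).

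**Figure D4:**
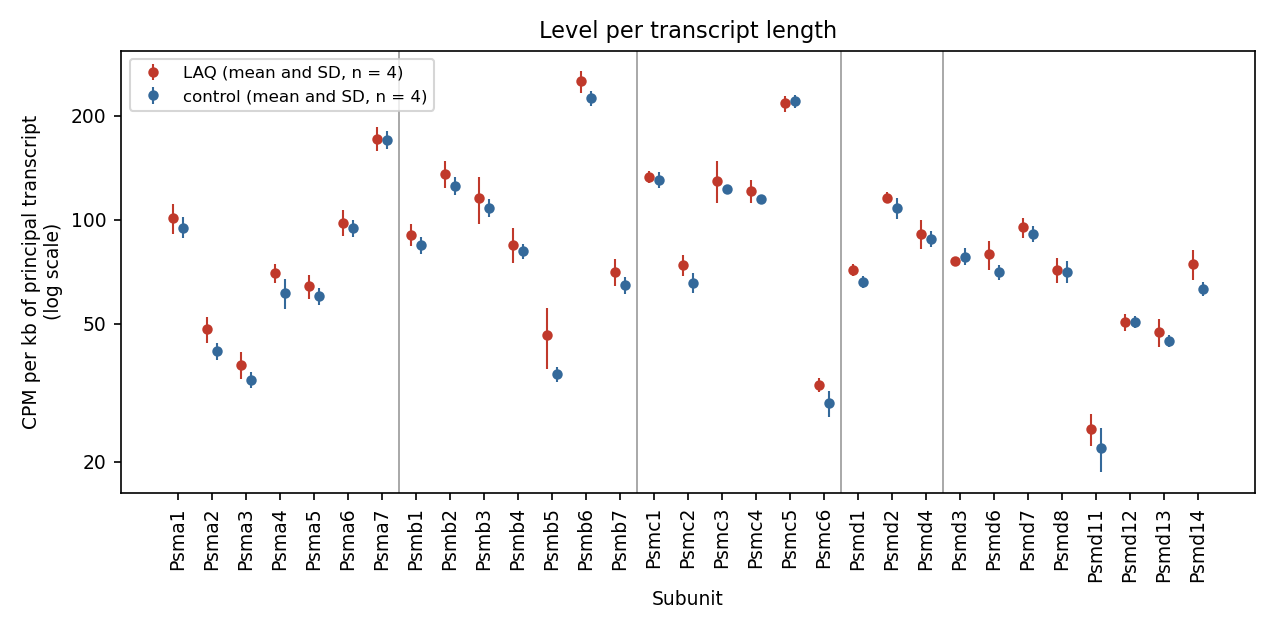
Mean level of each subunit in CPM per kb of principal transcript (vertical axis, log scale; bars are SD, n = 4), LAQ points left of control points, with lines between the alpha ring, beta ring, ATPases, other base subunits and lid. Psmb6 and Psmc5 stand highest, at 217 to 252 CPM per kb, and Psmd11 stands lowest.

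In GRCm38 with the GENCODE M21 annotation, all 31 members are protein-coding. Psmb5 lies on chromosome 14 from 54614119 to 54618022, Psmb6 on chromosome 11 from 70525367 to 70527858 and Psmb7 on chromosome 2 from 38588036 to 38644087. Psma2 lies on chromosome 13 from 14613240 to 14674236, Psma3 on chromosome 12 from 70974621 to 70996347 and Psma4 on chromosome 9 from 54950790 to 54958030. Psmc2 lies on chromosome 5 from 21785283 to 21803787, Psmc5 on chromosome 11 from 106256154 to 106263120 and Psmc6 on chromosome 14 from 45329788 to 45349705. Psmd6 lies on chromosome 14 from 14112174 to 14120984, Psmd11 on chromosome 11 from 80428615 to 80473248 and Psmd14 on chromosome 2 from 61711694 to 61800376. The start of 7 members lies within 1000 bases of the start of a protein-coding gene on the other strand. Psma2 (0.21 ± 0.08, SE) is paired in this way with Mrpl32, a mitochondrial ribosomal protein gene, whose log2 fold change was 0.22 ± 0.11 (SE). Psmc2 (0.17 ± 0.07) is paired with Dnajc2 at -0.11 ± 0.12, and Psmd13 (0.08 ± 0.08) with Sirt3 at -0.12 ± 0.08. The remaining pairs were Psma4 with AY074887 (0.15 ± 0.16 for the neighbour), Psma7 with Ss18l1 (0.07 ± 0.10), Psmb1 with Tbp (0.05 ± 0.09) and Psmc5 with Ftsj3 (-0.07 ± 0.09), and 0 of the 7 neighbours passed the test.

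The inducible catalytic subunits did not pass the test either. Psmb8, which replaces Psmb5 in the immunoproteasome, had 8.00, 7.56, 7.17 and 10.2 CPM in LAQ 5 to 8, against 7.45, 5.23, 6.41 and 7.61 CPM in control 1 to 4, a log2 fold change of 0.29 ± 0.18 (SE; adjusted p by edgeR, 0.563). Psmb9, which replaces Psmb6, had 4.86, 3.599, 2.06 and 3.95 CPM in LAQ, against 2.58, 2.56, 3.55 and 2.48 CPM in control, a log2 fold change of 0.37 ± 0.27 (SE; adjusted p by edgeR, 0.648). Both genes overlapped between the groups, and Psmb9 was lowest of all in LAQ 7. Without LAQ 7 the LAQ libraries lay above every control library for Psmb9, with a log2 fold change of 0.57 (adjusted p by edgeR, 0.208). It was 0.20 without LAQ 5 and 0.84 with the cortical score as a covariate. Psmb8 stood at 0.18 without LAQ 8 and 0.19 with that score. Psmb10, which replaces Psmb7, had 42.8, 38.1, 30.2 and 40.8 CPM in LAQ, against 41.8, 41.8, 40.6 and 38.3 CPM in control, and its fitted log2 ratio was -0.10 ± 0.11 (SE), with -0.0013 without LAQ 7 and 0.10 with the cortical score as a covariate. It was likewise lowest in LAQ 7. Psmb8 and Psmb9 share exon sequence with genes on the other strand (Gm20496 and Tap1), so their low counts are uncertain.

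Per length, Psmb8 stood at 11.1 ± 1.96% of Psmb5 in LAQ and 11.5 ± 1.88% in control, and Psmb9 at 1.05 ± 0.30% of Psmb6 in LAQ and 0.922 ± 0.184% in control (SD, n = 4 each). Both differences were smaller than the spread between libraries. Without LAQ 7, Psmb9 stood at 1.18 ± 0.170% of Psmb6 in LAQ (SD, n = 3), and the difference exceeded that spread, while Psmb8 stood at 10.3 ± 1.34% of Psmb5. Psmb10 stood at 45.7%, 42.8%, 35.8% and 39.1% of Psmb7 in LAQ 5 to 8, against 45.4%, 49.6%, 49.2% and 47.0% in control 1 to 4. Its mean was 40.9 ± 4.32% in LAQ and 47.8 ± 1.98% in control, and LAQ 5 alone fell within the control range. The difference in log2 ratio of Psmb10 to Psmb7 was -0.23, or -0.17 without LAQ 7. These ratios were not tested. The percentages depend on the length used, here that of the principal transcript. With the union of all annotated exons Psmb10 had 23.8 CPM per kb in control, above Psmb7 at 21.997. In LAQ, Psmb10 had 22.3 CPM per kb by that length, below Psmb7 at 24.0. Psmb8 fell from 4.10 to 1.97 CPM per kb in control and from 5.05 to 2.43 in LAQ, while Psmb5 kept its value. The tissue-restricted core subunits Psma8 (testis) and Psmb11 (thymus) lay below the filter. Psma8 had 0 to 3 counts per library in LAQ and 1 to 12 in control, and Psmb11 had 5 to 16 in LAQ and 6 to 12 in control.

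**Figure D5:**
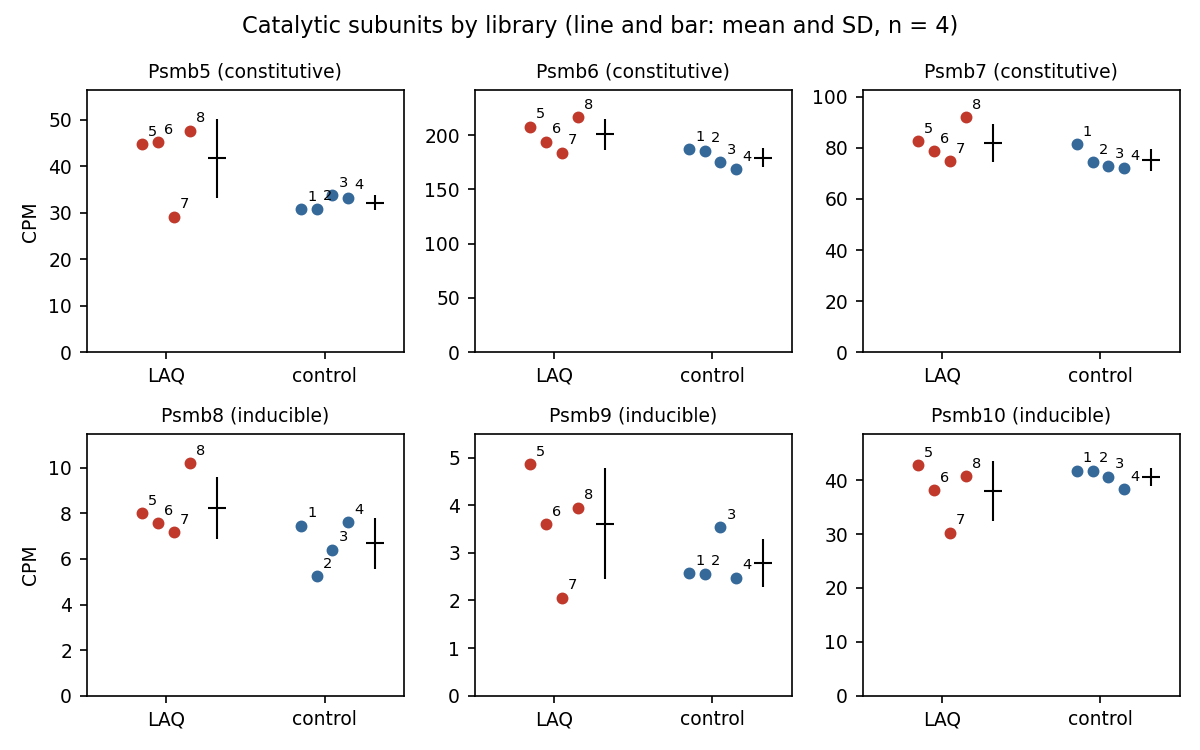
CPM of the constitutive catalytic subunits (top) and the inducible subunit that replaces each (bottom) by library; points are numbered by library, and lines and bars are mean and SD (n = 4). In Psmb5, LAQ 5, 6 and 8 lie at 44.7 to 47.6 CPM and LAQ 7 at 29.2 CPM, below the control libraries.

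Of the genes that assemble, cap or feed the proteasome, 0 passed edgeR's test over all genes, and the medians of their lists lay between -0.02 and 0.07. The other activators and the inhibitor had a median log2 fold change of -0.02 over 5 genes, with 1 above 0. They were Psme1 (-0.01 ± 0.10, SE) and Psme2 (-0.02 ± 0.10) of the interferon-inducible cap, Psme3 of the nuclear cap (-0.05 ± 0.06), Psme4 (-0.12 ± 0.10) and the inhibitor Psmf1 (0.07 ± 0.08). Psme4 stood at -0.05 without LAQ 6 and -0.35 with the cortical score as a covariate (adjusted p by edgeR, 0.149). Psme1 shares exon sequence with Emc9 on the other strand, so its count is uncertain. The 8 measured assembly chaperones had a median of 0.05, with 5 above 0. Psmd10 and Psmd5, which escort the ATPase ring during assembly, had the smallest p-values among them, at 0.20 ± 0.09 (adjusted p = 0.453 by edgeR) and 0.16 ± 0.09 (adjusted p = 0.515 by edgeR). Psmd10 had 29.6, 27.0, 25.6 and 27.9 CPM in LAQ 5 to 8, against 22.6, 24.2, 26.5 and 22.5 CPM in control 1 to 4, and LAQ 7 was the one LAQ library below control 3. Psmg1 and Psmg2, which build the alpha ring, stood at 0.06 ± 0.11 and 0.09 ± 0.09. Paaf1 was not matched in the table.

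The 11 associated receptors and enzymes had a median of 0.02, with 7 above 0. Ubqln1, a shuttle that brings ubiquitinated proteins to the proteasome, had 311, 307, 316 and 292 CPM in LAQ 5 to 8, against 281, 277, 289 and 291 CPM in control 1 to 4. All 4 LAQ libraries lay above the controls, if narrowly, and LAQ 7 was the highest. Its log2 fold change was 0.11 ± 0.06 (SE; adjusted p by edgeR, 0.527). Sem1, a small lid subunit counted under its older symbol Shfm1, stood at 0.13 ± 0.08, the reductase Txnl1 at 0.11 ± 0.08 and the deubiquitinase Usp14 at 0.09 ± 0.07. The 5 genes of transcriptional control had a median of 0.07, with 3 above 0. Nfe2l1 had 298, 298, 284 and 254 CPM in LAQ, against 308, 326, 292 and 308 CPM in control, a log2 fold change of -0.12 ± 0.07 (SE; adjusted p by edgeR, 0.552). LAQ 8, highest for most subunits, was lowest for Nfe2l1, and the log2 fold change was -0.07 without it. Any link between Nfe2l1 and the subunits was not tested, and its RNA level does not measure its activity. With the cortical score as a covariate Nfe2l1 stood at -0.04 and Ddi2 at -0.04. Ddi2, the protease that activates Nfe2l1, stood at -0.12 ± 0.08, Ngly1, which deglycosylates it, at 0.07 ± 0.09, and Vcp, which extracts it from the membrane, at 0.09 ± 0.07. The related factor Nfe2l2 stood at 0.11 ± 0.10, or 0.02 without LAQ 7 and 0.19 without LAQ 6. With the cortical score as a covariate it stood at -0.11. Usp14 (with Thoc1), Txnl1 (with Wdr7), Ngly1 (with Oxsm) and Vcp (with 1700022I11Rik) share exon sequence with a gene on the other strand. Ddi2 shares it with Rsc1a1 on the same strand, and the counts of all these genes are uncertain.

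Of 4 genes of ubiquitin and its activation, 2 lay above 0 and the median was 0.04. Uba6, an alternative ubiquitin-activating enzyme, had 27.2, 22.2, 26.4 and 21.7 CPM in LAQ 5 to 8, against 30.0, 27.8, 30.1 and 29.7 CPM in control 1 to 4. All 4 LAQ libraries lay below the controls, LAQ 7 included, with a log2 fold change of -0.27 ± 0.10 (SE; adjusted p by edgeR, 0.360). The polyubiquitin gene Ubb had 593, 624, 549.9 and 653 CPM in LAQ and 568, 574, 560.4 and 561 CPM in control. LAQ 7 was again the one LAQ library below the controls, and the log2 fold change was 0.10 ± 0.07 (SE). The ribosomal fusion gene Rps27a stood at 0.11 ± 0.09, and it shares exon sequence with Clhc1 on the other strand, so its count is uncertain. Uba1, the main ubiquitin-activating enzyme, stood at -0.01 ± 0.07, or 0.14 with the cortical score as a covariate.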

How the data were processed

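The authors deposited a table of raw counts (whole numbers, 1 row per gene symbol) for the 8 libraries, and a second table of the same libraries after normalization was not used. Per the submitters' processing notes, the build was GRCm38.p3 and the tools were DESeq2 1.10.1, HTSeq, STAR 2.5.2b and bcl2fastq 2.17.1.14; the sources used here give neither the annotation release nor the strand setting. Genes were kept by edgeR's filterByExpr (minimum count 10, minimum total 15), which left 15771 of 41128. After TMM scaling, the quasi-likelihood test of edgeR 4.0.16 (with limma 3.58.1 in R 4.3.3) set LAQ against control (two-sided, no covariate, threshold 0.05 after Benjamini-Hochberg adjustment over all genes tested). SE is the size of the log2 fold change divided by the square root of F, and log2 levels used a prior count of 2. Replicates differed by more than sampling noise (chi-square per degree of freedom 7.87 to 25.6 among LAQ and 4.24 to 6.07 among control libraries). Members and lists were chosen with earlier results of these data known. Genes named with values were the catalytic subunits, the 4 of smallest p and the extremes per length in each particle, and from each related list all of up to 5 genes or the 4 of smallest p; 2 listed genes are not reported here. Alternatives were other normalizations, filters and tests (DESeq2 1.42.0, voom, robust edgeR), a cortical marker score as covariate, and each library left out. Inducible to constitutive log2 ratios added 0.5 to each count. Lengths and positions came from GENCODE M21 and promoters from RefSeq. The fit was tested on simulated counts with the same dispersion for every gene. The planted differences were larger than any of the members' without the covariate, so that test does not cover differences of their size. Figures used matplotlib 3.10.9.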

Additional observations from a re-analysis of the deposited data

Results flagged for a closer look

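In groups of 4, a library was singled out where its gap to the nearest other exceeded Dixon's critical share of the group's range, which chance does in about 1 of 20 groups; 9 of the 128 groups checked had such a library. LAQ 7 was low for Psmb5 (29.2 CPM, nearest 44.7), Psmc1 (199 CPM, nearest 215) and Psmc6 (69.3 CPM, nearest 75.7). Control 4 was low for Psmc1 (191 CPM, nearest 211) and Psmd4 (108 CPM, nearest 120.1). Control 3 was high for Psmb9 (3.55 CPM, nearest 2.58) and so for the log2 ratio of Psmb9 to Psmb6 (-5.60, nearest -6.06). Control 1 was high for Sem1 (47.0 CPM, nearest 44.997), and control 2 was low for Uba6 (27.8 CPM, nearest 29.7).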

How the results depend on the processing

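No member passed under the alternatives run except without LAQ 7, where Psmb5 (0.51) and Psmd14 (0.30) did. Over all genes, 25 passed without the filter, 129 by DESeq2 and 511 with the cortical score as covariate; leaving out a library gave 0 to 339 genes and 0 to 2 members. Members at an unadjusted p under 0.05 numbered 1 to 14 over those fits, and the members' median log2 fold change 0.07 to 0.15. Direction turned for Psmd12 without the filter (0.00775) and by DESeq2 (0.000316), for Uba1 without the filter (0.0039), and with the cortical score for Psmb10 (0.10), Psme2 (0.0066), Psmf1 (-0.023), Nfe2l2 (-0.11) and Uba1 (0.14). With a library left out, log2 fold changes crossed 0 for Psma7 (-0.021 to 0.063), Psmc1 (-0.00097 to 0.062), Psmc5 (-0.054 to 0.0058), Psmd3 (-0.060 to 0.0029), Psmd4 (-0.0030 to 0.10), Psmd8 (-0.027 to 0.064), Psmd12 (-0.035 to 0.029), Psme1 (-0.059 to 0.039), Psme2 (-0.083 to 0.036) and Uba1 (-0.040 to 0.043). The cause was not tested. No paired analysis was possible because the groups share no replicate number. The SE of a typical member was 0.08 on the log2 scale (median over 31). The exon-union length was chosen after seeing the data.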
